A study of Mus musculus with 2 samples.

Results

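The retina at 1 week of chronic ocular hypertension (COH) and the control retina were each profiled once with a Rac1 antibody. The regions described here are the promoter peaks found in the control retina and not in the COH retina. They were chosen by the positions of the peaks in the 2 lists: all control peaks whose deposited annotation began with "Promoter" and that shared no base pair with any COH peak. There were 935 such peaks among the 1445 promoter peaks of control, and among 3078 control and 1711 COH peaks in all. CUT&Tag uses an antibody bound to chromatin to bring the Tn5 transposase to its sites, so that tags are inserted nearby and sequenced. Both groups were retinas of 7-week-old wild-type C57BL/6 mice: the COH group had raised pressure in the eye, and the control group had no treatment. Each group was 1 library, and how many animals it held is not given in the sources used here. The choice of these regions used the 2 peak lists themselves, so the number of regions and their strength are descriptions. With 1 library per group no difference between the conditions was tested, and a peak that is not in the COH list is not shown to be unbound there.

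Rac1 is a small GTPase that turns on actin remodelling through kinases of the PAK family, and it is known mainly from the cytoplasm and the plasma membrane. Promoters are the regions around transcription start sites (TSS), where general factors and RNA polymerase assemble. Promoters of broadly active genes are usually rich in CpG and open, and Tn5 cuts open chromatin readily. Kif2a, named in the title of the series, encodes a kinesin that depolymerises microtubules and does not walk along them.

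The sequences below are promoters of Kif2a and of members among the 10 of highest fold, shown mainly from windows that hold a searched motif. Each is the RefSeq promoter of the gene in GRCm38.p6, 250 bases before to 50 after the first listed start, 5′ to 3′ on the strand of the gene. Capitals mark matches, on either strand, to 12 short motifs spelled out further on. The coordinates of the peak lists are of another build, so these windows were matched by gene name, and their exact place within a peak is not known.
Kif2a, chr13:107022306-107022605, minus strand: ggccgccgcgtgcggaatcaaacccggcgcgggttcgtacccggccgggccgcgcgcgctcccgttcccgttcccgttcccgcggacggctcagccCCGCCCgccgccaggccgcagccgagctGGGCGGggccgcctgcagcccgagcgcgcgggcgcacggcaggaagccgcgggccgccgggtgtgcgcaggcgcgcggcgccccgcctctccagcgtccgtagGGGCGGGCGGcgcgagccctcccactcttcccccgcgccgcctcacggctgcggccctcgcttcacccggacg
Larp7, chr3:127553300-127553599, minus strand: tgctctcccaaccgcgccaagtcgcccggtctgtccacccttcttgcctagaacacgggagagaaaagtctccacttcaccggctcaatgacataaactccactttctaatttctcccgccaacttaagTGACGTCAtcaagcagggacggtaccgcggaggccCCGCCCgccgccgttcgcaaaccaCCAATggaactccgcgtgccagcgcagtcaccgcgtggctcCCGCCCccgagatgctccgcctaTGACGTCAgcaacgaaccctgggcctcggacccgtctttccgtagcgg
Rab11fip2, chr19:59943605-59943904, minus strand: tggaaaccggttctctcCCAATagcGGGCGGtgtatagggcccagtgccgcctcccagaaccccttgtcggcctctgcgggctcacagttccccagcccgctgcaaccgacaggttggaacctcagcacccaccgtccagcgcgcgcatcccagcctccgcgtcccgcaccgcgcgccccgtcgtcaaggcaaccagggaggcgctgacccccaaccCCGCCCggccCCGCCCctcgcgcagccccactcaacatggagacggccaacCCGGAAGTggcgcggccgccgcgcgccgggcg
Tmem260, chr14:48446102-48446401, plus strand: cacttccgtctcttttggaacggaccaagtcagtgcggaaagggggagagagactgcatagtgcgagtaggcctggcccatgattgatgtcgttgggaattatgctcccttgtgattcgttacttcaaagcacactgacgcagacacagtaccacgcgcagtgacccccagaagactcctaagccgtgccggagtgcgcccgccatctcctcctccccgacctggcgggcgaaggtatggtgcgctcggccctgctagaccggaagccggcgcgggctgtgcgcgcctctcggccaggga
Sertad3, chr7:27473590-27473889, plus strand: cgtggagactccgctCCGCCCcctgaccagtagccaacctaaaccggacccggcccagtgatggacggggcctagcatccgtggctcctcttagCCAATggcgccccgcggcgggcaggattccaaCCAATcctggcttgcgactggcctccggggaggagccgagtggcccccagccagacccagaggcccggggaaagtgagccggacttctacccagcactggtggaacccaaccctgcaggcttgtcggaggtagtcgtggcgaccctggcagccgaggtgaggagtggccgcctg
Aldh18a1, chr19:40588414-40588713, minus strand: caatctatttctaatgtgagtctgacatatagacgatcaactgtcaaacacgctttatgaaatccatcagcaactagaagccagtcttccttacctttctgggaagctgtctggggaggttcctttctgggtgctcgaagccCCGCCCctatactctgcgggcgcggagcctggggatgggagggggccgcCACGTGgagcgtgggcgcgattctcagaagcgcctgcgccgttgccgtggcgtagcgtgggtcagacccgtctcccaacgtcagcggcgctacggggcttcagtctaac
The Kif2a window held GC boxes, the letters bound by SP1, and none of the other 11 motifs. The Larp7 window held GC boxes, a CCAAT box and the cAMP response element TGACGTCA on 2 occasions, and the Rab11fip2 window held an ETS motif beside GC and CCAAT boxes. The Tmem260 window held none of the 12, nor did that of Il23r, the region of highest fold, which is not printed because its peak lay far from the start.

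The peaks without a COH counterpart made up 64.7% (62.2 to 67.2, exact 95% binomial interval, counting error only) of the control promoter peaks. Control peaks of all other annotation classes lacked a COH counterpart at a like share, 66.6% (64.2 to 68.9). In the other direction 203 of 694 COH promoter peaks, 29.3% (25.9 to 32.8), had no control counterpart. The share at promoters was thus close to that of the other classes. The lists hold peaks past the caller's threshold, down to a -log10 q of 1.82 in COH and 2.0 in control. The number of reads behind each list is unknown, and no library with a control antibody was analysed here.

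The control-only promoter peaks had lower medians and narrower ranges of strength than the control promoter peaks with a COH counterpart. Their fold enrichment, the authors' ratio over background, had a median of 5.05 (quartiles 4.51 and 5.81) and ran between 3.07 and 9.60. The 510 control promoter peaks with a COH counterpart had a median of 5.73 (quartiles 4.90 and 6.76) and ran between 1.73 and 21.1. The pileup, the authors' height of overlapping fragments at a peak, had a median of 17 in the control-only peaks and 24 in the shared peaks. Its highest value was 44 in the control-only peaks and 8774 in the shared peaks. The control-only peaks were also shorter, with a median length of 433 bp against 600 bp. The 2 sets overlapped widely in each of these measures, and every control promoter peak with a pileup above 44 had a COH counterpart. Low values were not particular to the control-only promoter peaks. The COH promoter peaks without a control counterpart had a median fold of 4.99, pileup of 15 and length of 382 bp. Control peaks of other classes without a COH counterpart had medians of 4.87, 14 and 372 bp.

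**Figure D1:**
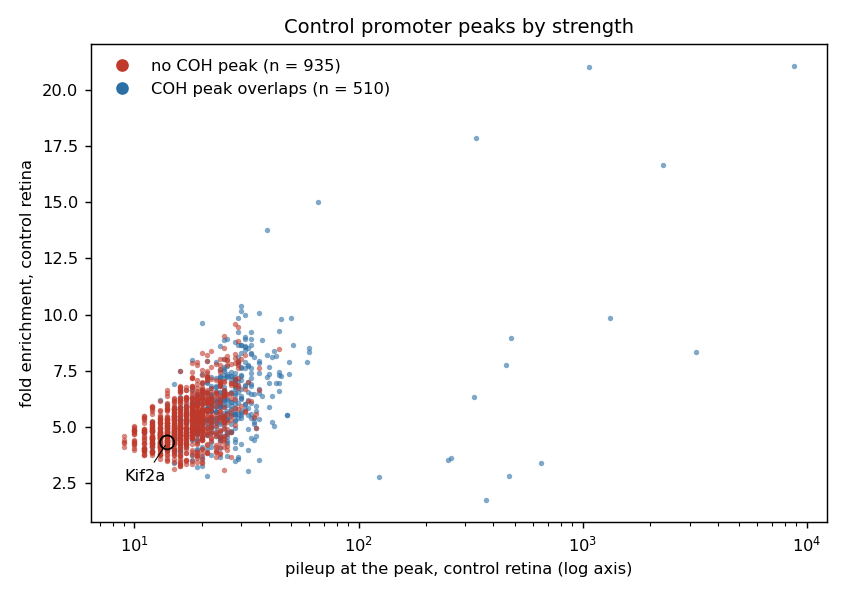
Each point is a control promoter peak, placed by its pileup in the control retina (log axis) and its fold enrichment. The 935 peaks without a COH peak (red) have pileups of 9 to 44, and the 510 peaks that a COH peak overlaps (blue) reach 8774; the circle marks Kif2a, at a pileup of 14 and a fold of 4.31.

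The share of control promoter peaks without a COH peak was lower in the stronger bins of each measure. Across 5 bins of rising fold it was 77.6% (72.3 to 82.3), 75%, 67.8%, 60.2% and 42.9% (37.1 to 48.8). Across 5 bins of rising pileup it was 89.5% (85.5 to 92.7), 80.5%, 70.9%, 52.0% and 22.6% (17.6 to 28.2). By length it was 84.2% (79.5 to 88.2) among peaks of 296 to 360 bp and 38.1% (32.4 to 43.9) among those of 686 bp or more. Of the 3 measures pileup had the widest span. The control-only set held 269 peaks with a pileup of at least 20, out of 629 control promoter peaks, and 15 with a pileup of at least 30, out of 139.

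**Figure D2:**
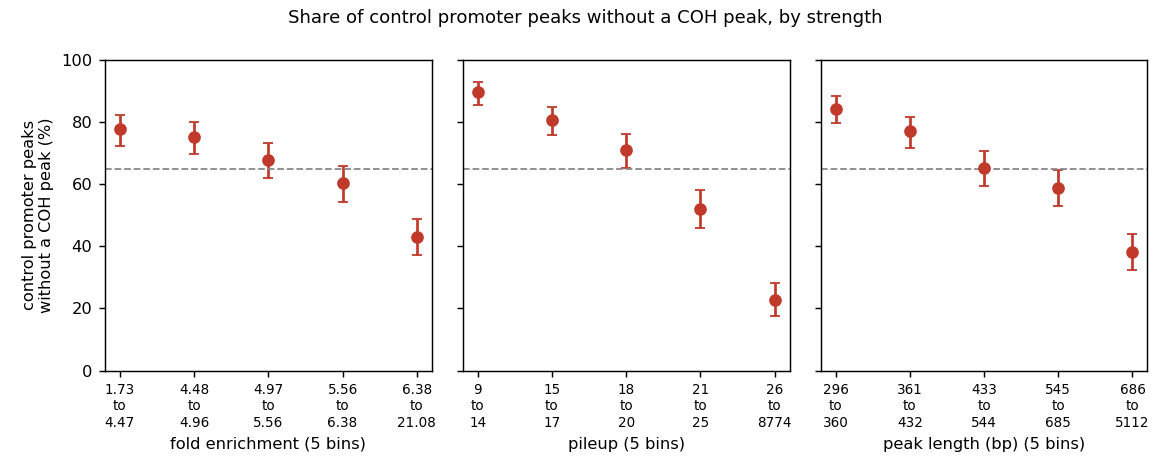
The vertical axis is the share of control promoter peaks without a COH peak, in 5 bins of fold, pileup and length whose ranges stand under the points; bars are exact 95% binomial intervals and the dashed line is the share over all 1445 peaks, 64.7%. By pileup the share is 89.5% in the lowest bin and 22.6% in the highest.

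Where a COH peak overlapped a control promoter peak, the COH peak usually had the lower pileup of the pair. The COH peak of a pair could be of any annotation class, and the same COH peak could stand in more than 1 pair. Over 507 overlapping pairs outside the mitochondrial genome the median pileup was 18 in COH and 24 in control. The pileup was lower in COH in 383 pairs, higher in 94 and equal in 30, with a median ratio of COH over control of 0.824 (quartiles 0.667 and 0.967). COH peaks of these pairs were also shorter, with a median length of 458 bp against 596 bp in control. The fold, in contrast, did not lean to one side: its median was 5.68 in COH and 5.73 in control, and it was lower in COH in 258 pairs and higher in 249. Pileup therefore differed between the libraries at the shared promoters as well, and its part in the absence of the 935 peaks in COH was not tested. The scaling of the pileup is not stated, so it is not known whether it carries the sequencing depth.

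Few of the regions had a listed COH peak close by. The distances do not show whether a COH peak fell just short of the caller's threshold, which was not tested. The nearest COH peak lay a median of 391 kb away (quartiles 156 and 927 kb). It lay within 100 bp of 1 region, within 1000 bp of 7 and within 10000 bp of 14. The closest was at Txndc16, 89 bp from a COH peak assigned to the adjacent Gpr137c (pileup 13 in COH, 15 in control). Next came Med19 at 109 bp, Thrap3 at 203 bp and, farther off, Map3k1 at 414 bp. On the other side of the rule, the smallest overlaps that counted as shared were 3 bp at Bhlhb9, 12 bp at Laptm4a, 27 bp at Ube2g1, 43 bp at Pafah1b2 and 48 bp at Stmn1, which encodes the microtubule-destabilising protein stathmin. The peaks at these genes were of like strength, with control folds of 4.49 to 5.22 just without a partner and 3.87 to 4.76 just with one.

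Nearly all regions lay at the start of their gene. The annotation put 918 (98.2%) within 1 kb of the TSS, 10 at 1 to 2 kb and 7 at 2 to 3 kb. The peak itself covered the TSS in 793 (84.8%, 82.3 to 87.1) of the control-only peaks and in 414 (81.2%, 77.5 to 84.5) of the shared ones, and otherwise ended upstream. No promoter peak of either list began downstream of a TSS. Peaks that began within 1000 bp downstream, 202 in COH and 484 in control, were annotated to other classes, so the promoter class of these lists covers the start and its upstream side. The summits lay a median of -17 bp from the TSS (interval -46 to 5, negative upstream) in the control-only peaks and -76 bp (-114 to -37) in the shared ones. Summits fell within 200 bp of the TSS for 65.2% (62.1 to 68.3) of the control-only and 57.5% (53.0 to 61.8) of the shared peaks. Summits lay on both sides of the TSS, and upstream of it in 52.3% (49.0 to 55.5) of the control-only and 58.6% (54.2 to 62.9) of the shared peaks.

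**Figure D3:**
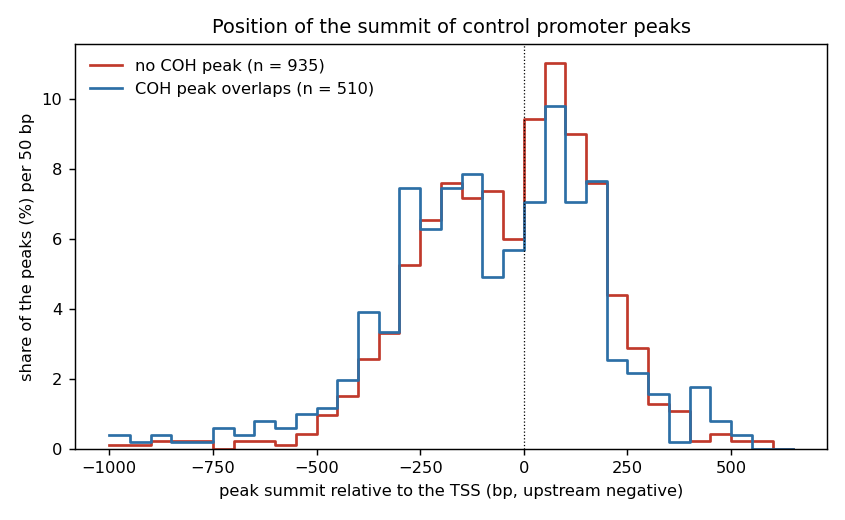
Shares of peaks per 50 bp by the distance of the summit from the TSS (upstream negative), for control promoter peaks without a COH peak (red) and with one (blue). Both sets have summits on both sides of the start; the medians are -17 bp without and -76 bp with a COH peak.

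The 17 regions beyond 1 kb differed in kind from the rest and included both of the distant sites among the 10 of highest fold. Il23r, the interleukin 23 receptor, had the highest fold of all 935 at 9.60 (pileup 28), at -2820 bp. A gene given by its identifier alone had a fold of 8.52 at -2676 bp. Many of the others were pseudogenes or predicted genes, such as Olfr335-ps, Obox4-ps29, Rpl7a-ps7, Wdr46-ps and Gm6679. Vmn1r2, a vomeronasal receptor gene, had 2 of the regions, with folds of 6.10 and 3.77 at -1979 and -2758 bp.

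The strongest regions at gene starts belonged to genes of varied function. After Il23r the order by fold was Larp7 (fold 9.44, pileup 29), a protein of the 7SK particle that restrains transcription elongation. Rab11fip2 (9.03, pileup 25) encodes an effector of RAB11 in recycling endosomes, and Tmem260 (8.81, pileup 29) a transmembrane protein. Sertad3 (8.47), a transcriptional coregulator, had the highest pileup of all the regions, 44, and a -log10 q of 24.7. Aldh18a1 (8.36), an enzyme of proline synthesis, Blzf1 (8.27), a Golgi protein, Fbxo30 (8.24), an F-box protein of a ubiquitin ligase, and Cenpn (8.22), a centromere protein, completed the 10. Il23r ranked 164 of the 3078 control peaks by fold and Larp7 ranked 175, so each was exceeded by more than 100 other control peaks. The next pileups after Sertad3 were 36 at Deaf1, a transcription factor, and at Prmt1, an arginine methyltransferase, and 35 at Inpp5a, an inositol phosphatase, and at Pim3, a kinase.

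The 935 regions were assigned to 933 genes, of which Zc3h4 and Vmn1r2 had 2 regions each. RefSeq names were found for 914, of which 905 were protein-coding and 9 were pseudogenes. Among 21900 protein-coding genes, 4.13% had a control-only promoter peak and 2.17% a shared one. Of the 1380 protein-coding genes with a control promoter peak of either kind, 65.6% had a control-only one. The counts for the gene lists below stand beside these shares, and no list was tested. Of the 905 genes, 327 belonged to at least 1 of the 56 lists.

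Genes of the cytoskeleton, the known field of Rac1, were spread over its branches. Rac1 itself was not among the regions. Of 142 genes of Rac1-family GTPase signalling, 11 (7.75%, 3.93 to 13.4) had a control-only promoter peak and 5 a shared one. Arhgap17, a GTPase-activating protein for Rac1 and Cdc42, had the highest fold of the list, 6.56 with a pileup of 22. Pak1, a kinase that active Rac1 switches on, had a fold of 6.07 (pileup 15) and Limk1, which PAK kinases activate and which inactivates cofilin, 4.53 (pileup 15). Rhoa, the GTPase that drives actomyosin contraction, had 5.69 (pileup 20), and its effector kinase Rock2 had 5.03 (pileup 19). Arhgap5 (5.36), Arhgap21 (5.31) and Srgap2 (4.51), all GTPase-activating proteins, were further members. Myo9a, Arhgap12, Arhgap35, Dock9 and Rhoq were those with a shared peak.

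Actin genes were mostly on the control-only side, with 9 of 82 (11.0%, 5.14 to 19.8) against 2 with a shared peak. The 9 were the myosin heavy chain Myh10 (5.90), the ARP2/3 subunit Arpc5 (5.73), the cofilin partner Cap1 (5.60), the capping protein Capza1 (5.27), profilin 2 (Pfn2, 5.05), vinculin (Vcl, 4.99), Abi2 (4.44), a subunit of the WAVE complex through which Rac1 acts on ARP2/3, Spire1 (4.08) and Enah (3.83). Wasl and Diaph1 had shared peaks. The 11 actin genes with any control promoter peak were few, and the share of control-only peaks among them, 81.8%, stood beside 65.6% over all genes.

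Motor and microtubule genes were also represented by few members. Kif2a had a fold of 4.31, a pileup of 14 and a -log10 q of 3.69, in a peak listed at bases 107158839 to 107159231 of chromosome 13. It ranked 766 of the 935 regions by fold, and 272 of 304 control promoter peaks with a pileup of 9 to 14 had no COH counterpart. Its summit lay 514 bp upstream of the TSS, farther than in most regions. The other kinesins were Kif1b (5.12, pileup 16), which moves mitochondria and synaptic vesicle precursors, and Kif27 (5.08, pileup 14), giving 3 of 46 (6.52%, 1.37 to 17.9) and no shared peak. Of the 3 kinesins, 1 passed a -log10 q of 5, and 0 lay above the median fold of the control promoter peaks. Of 30 dynein and dynactin genes 3 had a control-only peak, Hook1 (6.83), an adaptor of dynein, Dctn4 (6.32) and Dync2li1 (5.37), and none a shared one. Among 80 microtubule genes 4 were control-only, Map2 (5.97), Ttll5 (5.52), Ttll7 (4.96) and Map4 (4.23), and 3 were shared, Camsap1, Stmn1 and Tubgcp2. Map2 and Map4 bind along microtubules, and the TTLL enzymes add glutamate chains to tubulin.

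Genes that act in axon injury had the highest control-only share of the lists, 9 of 47 (19.1%, 9.15 to 33.3), and also a high shared count, 7. Rtn4, which encodes the growth inhibitor Nogo, had a fold of 7.04 with a pileup of 24. Growth signalling followed with its brake Tsc1 (6.19, pileup 20) and the kinase Mtor (5.57, pileup 19). Map2k4 (5.04), which activates JNK, Il6st (4.95), the shared receptor chain for CNTF and interleukin 6, and Ddit3 (3.07), the stress factor CHOP, were further members. Ddit3 had the lowest fold of all 935 regions. The JNK genes Mapk8 and Mapk9 themselves had shared peaks. Of 59 genes of PI3K, AKT, mTOR and AMPK signalling, 8 (13.6%, 6.04 to 25) were control-only, led by the PI3K subunit Pik3r3 (7.80, pileup 27), the AMPK subunit Prkab2 (6.51) and the RAG GTPase Rragc (6.02). Akt2, Gsk3a and Gsk3b were among the 6 with a shared peak. In the MAP kinase cascade 10 of 97 (10.3%, 5.06 to 18.1) were control-only, among them Map3k2 (5.19), Mapk6 (4.94) and Map3k1 (4.76). Those 10 had low folds: 4 passed a -log10 q of 5, and 0 lay above the median fold of the control promoter peaks, where 1.75% of all genes had a control-only peak.

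Nuclear functions supplied many of the regions and many of the shared peaks as well. Among genes with a control promoter peak, the control-only part was 58.3% for histone methylation and Polycomb and 47.8% for acetylation and remodelling. It was 62.1% for splicing factors and hnRNPs and 52.0% for mRNA decay, export and the nuclear pore. All of these were below the 65.6% over all genes, and the differences were not tested. Histone methylation and Polycomb genes had 14 of 104 (13.5%, 7.56 to 21.6), with the H3K27 demethylase Kdm6a (6.70), Prmt1 (6.64), the demethylase Kdm4a (6.52), the PRC2 subunit Eed (5.31) and the H3K4 methyltransferase Kmt2a (4.91). Kdm3a, at a fold of 9.21, and Kmt2c, Kmt2d and Kmt2e were among the 10 with a shared peak. Acetylation and remodelling genes had 11 of 113 control-only and 12 shared: Hdac2 (8.03, pileup 30), Ep400 (6.68), Ino80 (6.27) and Chd8 (6.17) led the first, and Ing5, Ep300 and Smarca4 were in the second. Splicing factors and hnRNPs had 18 of 172 (10.5%, 6.32 to 16.0) and 11. The branch-point factor Sf1 (6.29), the core protein Snrpe (6.21), Srsf2 (6.11) and Hnrnpa0 (6.05) had control-only peaks, and Ewsr1 and Snrnp70 shared ones. Genes of mRNA decay, export and the nuclear pore had 13 of 97 (13.4%, 7.33 to 21.8) and 12. There the exosome subunits Exosc8 (6.28), Exosc1, Exosc6 and Exosc7 and the deadenylase subunits Cnot4 (6.26), Cnot8 and Cnot3 were control-only. Cnot9, of the same complex, had a shared peak with a fold of 8.63, as did the nonsense-mediated decay genes Smg1, Upf2 and Upf3a with lower folds.

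**Figure D4:**
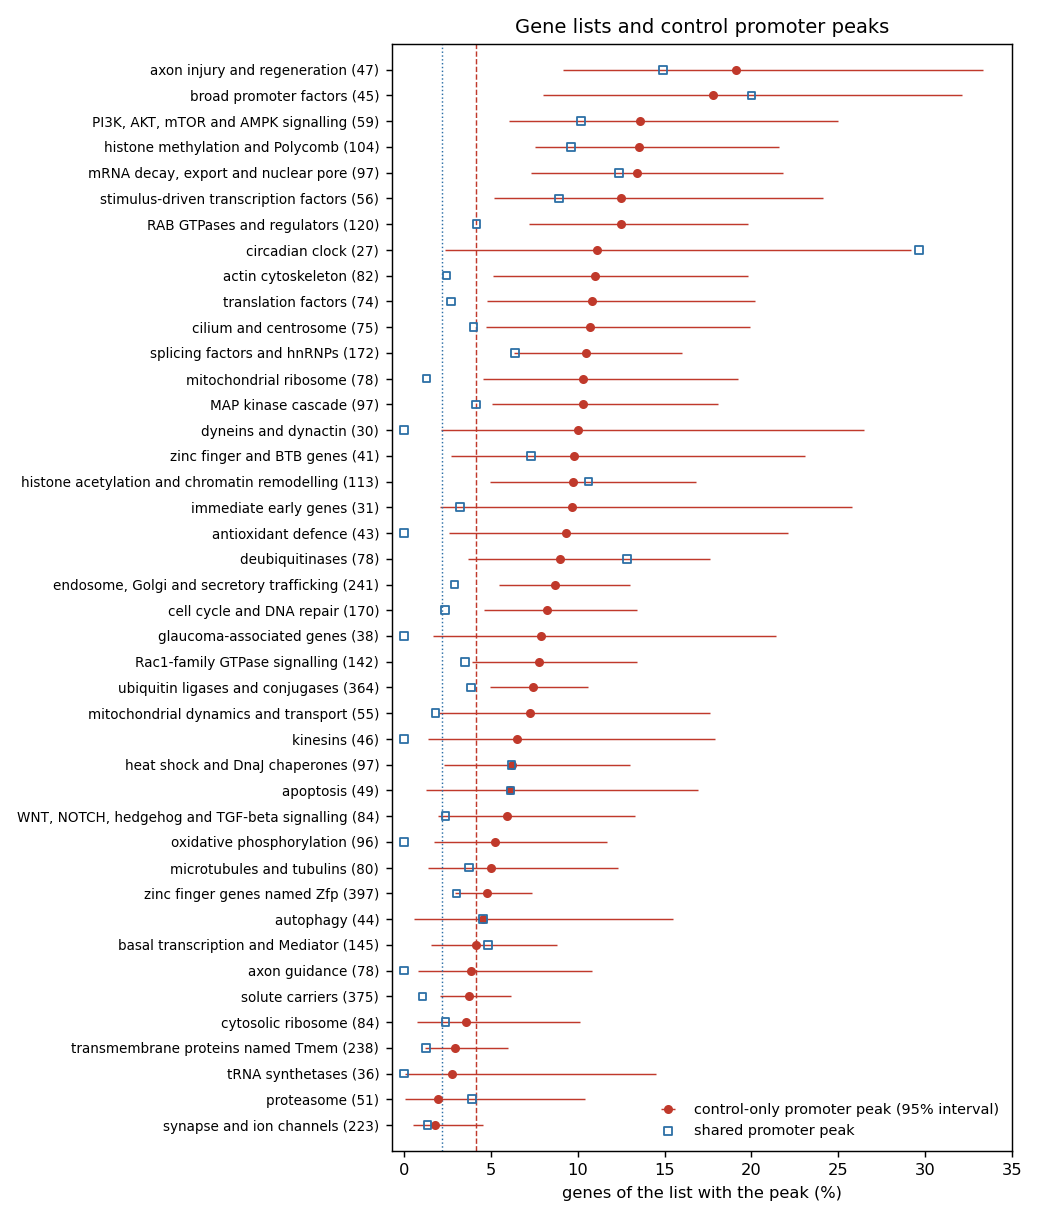
Each row is a gene list with its number of protein-coding genes in brackets; red points give the share with a control-only promoter peak (bars, exact 95% binomial intervals), blue squares the share with a shared promoter peak. The dashed and dotted lines are the shares over all protein-coding genes, 4.13% and 2.17%. Most of the drawn lists of housekeeping and signalling genes lie to the right of the dashed line, and the circadian clock list has its square to the right of its point. The cell type marker, histone gene, multicopy gene, and olfactory and vomeronasal receptor lists are not drawn. They include the 12 lists at 0, the receptors at 0.0684% and the Müller glia markers at 12.5%.

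Trafficking and mitochondrial genes had more control-only than shared peaks, as did all genes with a control promoter peak, of which 65.6% had a control-only one. Among genes with a control promoter peak, the control-only ones were 15 of 20 RAB genes and 21 of 28 other trafficking genes. Both parts were somewhat above 65.6%, and the difference was not tested. The mitochondrial ribosome and oxidative phosphorylation lists had only 9 and 5 genes with a control promoter peak. RAB GTPases and their regulators had 15 of 120 (12.5%, 7.17 to 19.8) against 5, with Rab11fip2 (9.03), Dennd4c (6.64), the early endosome GTPase Rab5b (6.38), Rab28 (6.15) and Rab8a (6.13). Other endosome, Golgi and secretory genes had 21 of 241 (8.71%, 5.47 to 13.0) against 7, with the endosome tether Eea1 (7.46), Stam (7.29), the signal peptidase subunit Sec11a (7.08), Ap1s3 (6.53) and Ap3s1 (6.24). Genes of the mitochondrial ribosome had 8 of 78 (10.3%, 4.53 to 19.2) and 1, and oxidative phosphorylation genes 5 of 96 (5.21%, 1.71 to 11.7) and 0. The 5 were the complex I genes Ndufb6 (5.63), Ndufb5 (5.51), Ndufv2 (4.95) and Ndufa11 (3.43) and the ATP synthase gene Atp5mpl (5.59). The outer membrane import receptor Tomm70a had a fold of 7.65 and Mfn2, which fuses mitochondria, 5.45. Translation factors had 8 of 74 and 2, with Eif1ax (6.49), Eif2a (5.98) and the stress kinase Eif2ak4 (5.81).

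Protein quality control was divided between the sets. Ubiquitin ligases and conjugases had 27 of 364 (7.42%, 4.94 to 10.6) control-only and 14 shared, with Fbxo30 (8.24), Rnf19a (7.28), Fbxo47 (7.21), Klhl26 (6.61) and Fbxl4 (6.55) in the first. Deubiquitinases had 7 of 78 control-only, led by Usp36 (6.94) and Usp47 (6.28), and 10 shared, among them Usp9x, Usp22 and Cyld. Heat shock and DnaJ chaperones had 6 of 97 in each set. Hsph1 (7.42), Dnaja2 (7.20) and the endoplasmic reticulum chaperone Hsp90b1 (4.61) were control-only, and Hspa8, Dnajb1 and Hspd1 were shared. Antioxidant genes had 4 of 43 control-only and 0 shared: Txn1 (4.57), Nfe2l2 (4.52), Sod1 (4.51) and Glrx5 (3.48), all below the median fold of the regions. Of these 4, 1 passed a -log10 q of 5 and 0 lay above the median fold of the control promoter peaks. Apoptosis genes had 3 of 49, Ripk1 (6.38), the BH3 protein Bcl2l11 (5.91) and Birc6 (5.55), and 3 shared, Cycs, Bcl2l1 and Apaf1.

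Clock genes were the list with the lowest part of control-only peaks among lists with at least 10 promoter peaks. Of 11 clock genes with a control promoter peak, 3 (27.3%) were control-only, beside 65.6% over all genes, among them the cryptochromes Cry1 (6.40, pileup 21) and Cry2 (5.40, pileup 23). The 8 with a shared peak included Per1, Per2, Per3, Nr1d2 and Dbp. The cryptochromes and the PER proteins form the repressor of the clock together. Broad promoter factors had 8 of 45 control-only, such as Elf2 (6.36), Ets2 (5.51), the ETS factor Gabpa (5.24) and Nfyb (4.23), and 9 shared, including Nfya, Yy1, Ctcf and Sp1. Stimulus-driven factors had 7 of 56, with the NF-kB subunits Rel (5.37) and Relb (5.27), Arnt (5.22), Smad5 (4.66) and Smad2 (4.64). Zinc finger genes named Zfp had 19 of 397 (4.79%, 2.91 to 7.37), near the 4.13% of all genes.

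Cell division and cilium genes were further groups. Cell cycle and DNA repair genes had 14 of 170 (8.24%, 4.58 to 13.4) control-only and 4 shared, and their median fold, 6.12, was above the 5.05 of all regions. Cdk13 (7.96, pileup 26), Plk2 (7.07), the cohesin subunit Smc3 (6.99), the retinoblastoma relative Rbl1 (6.77) and Ercc6l2 (6.70) led them, and Cdk4 was shared. Cilium and centrosome genes had 8 of 75 (10.7%, 4.72 to 19.9) and 3, with Cep20 (6.18), Cep41 (6.07), Cep83 (5.37) and Cep290 (5.29). Cep290 acts at the connecting cilium of photoreceptors. Solute carriers had 14 of 375 (3.73%, 2.06 to 6.18) and 4, led by the amino acid transporter Slc1a4 (7.16, pileup 29) and the mitochondrial carrier Slc25a36 (6.91). WNT, NOTCH, hedgehog and TGF-beta genes had 5 of 84 and 2, and the 5 were the receptors Fzd5 (5.56), Fzd4 (5.41), Tgfbr1 (5.18) and Bmpr2 (4.78) and the scaffold Axin1 (5.36). Cytosolic ribosome genes had 3 of 84 (3.57%, 0.743 to 10.1) and 2, with Rps13 (6.06), Rpl37 (4.11) and Rps19 (3.51).

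Genes particular to neurons or to retinal cell types gave low shares in some lists and not in others. Synapse and ion channel genes had 4 of 223 (1.79%, 0.491 to 4.53): Pclo (7.55, pileup 20), a scaffold of the active zone, Gabra2 (4.84), Rims2 (4.45) and the calcium channel gene Cacna1b (4.24). Axon guidance genes had 3 of 78 (3.85%, 0.80 to 10.8), among them Sema6c (4.41) and Neo1 (4.03). Glaucoma-associated genes had 3 of 38 (7.89%, 1.66 to 21.4), above the 4.13% of all genes but with an interval that holds it: Mfn2, Tbk1 (4.95) and Gmds (3.99). Of the marker lists for 11 cell types of the eye, Müller glia had 2 of 16 (12.5%, 1.55 to 38.3), Car2 (5.33) and Glul (4.65), and the other 10 lists had 0, including 0 of 22 ganglion cell, 0 of 21 rod and 0 of 17 microglia markers. Defining markers of retinal neurons were thus absent from this set of promoters. Olfactory and vomeronasal receptors had 1 of 1463, Vmn1r2.

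For 911 of the 933 genes the COH list held no peak assigned to the gene, and for 22 it held 23 peaks elsewhere. In the control list, 25 of the 933 genes had another peak. The share of all genes with a COH peak was not computed. The 911 include Txndc16 and Med19, whose COH neighbours at 89 and 109 bp were assigned to other genes. The 23 COH peaks lay in distal intergenic regions (7), introns (6), 5′ UTRs (3), promoters (3), exons (2) and 3′ UTRs (2), and 13 lay more than 10000 bp from the TSS. Of the 23, 10 overlapped another control peak, so those sites were in both retinas. The 3 strongest were of that kind. A site assigned to Afdn, which encodes the junction protein afadin, lay at -105430 bp in an intron of another gene, with a fold of 14.7 in COH and 9.80 in control, while the promoter peak in control had 4.74. A distal site of Ythdf3, a reader of methylated RNA, had a fold of 11.8 in COH and 13.3 in control, and an intronic site of Arhgap21 had 11.6 and 10.2.

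A distal site of Dcbld2 had a fold of 6.08 in COH and 5.97 in control.

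In several further genes a COH peak stood within 1000 bp of the TSS and beside the control peak without touching it. For Map3k1 the COH peak lay in exon 1 at 235 bp downstream of the TSS (pileup 18, fold 5.42), and the control peak ended 179 bp upstream (pileup 18, fold 4.76). For Thrap3 the COH peak ended 217 bp upstream (pileup 13, fold 4.47) and the control peak covered the TSS (pileup 13, fold 5.22). For Rcor3 the pileup was 14 in COH and 18 in control, and for the immediate early gene Nr4a3 it was 15 in COH, at -134 bp, and 25 in control, at -1928 bp. In these genes both retinas had a peak at or near the same promoter.

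The promoters of these genes were CpG-rich. RefSeq promoters were found for 736 of the 905 protein-coding genes (81.3%) and for 389 of the 476 with a shared peak (81.7%). The ratio of observed to expected CpG had a median of 0.848 (quartiles 0.721 and 0.95) in the control-only genes, 0.849 in the shared genes and 0.577 in all protein-coding genes. The GC content was 65.3%, 68.0% and 56.3%. The GC box GGGCGG was in 78.5% (75.4 to 81.4) of the control-only, 83.5% (79.5 to 87.1) of the shared and 46.3% of all promoters. The TATA box TATAAA was in 3.12% (1.99 to 4.65), 4.63% (2.77 to 7.21) and 13.3%. In both features the promoters with peaks were alike and stood apart from the average promoter.

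The other motifs separated the 2 sets little. The ETS motif CCGGAAGT was in 8.15% (6.28 to 10.4) of control-only promoters, 4.88% (2.97 to 7.52) of shared and 5.29% of all promoters. In a window of 100 bases before to 50 after the start it was in 4.89% of the control-only and 4.34% of all promoters. The cAMP response element TGACGTCA was in 4.35% (2.99 to 6.08), 2.57% (1.24 to 4.68) and 2.34%, and the YY1 motif AAGATGGCG in 3.80% (2.54 to 5.45), 2.06% (0.892 to 4.01) and 1.94%. The NRF1 motif GCGCATGCG was in 5.03%, 5.66% and 2.41%. The E-box CACGTG, which clock factors bind, was in 9.10% (7.12 to 11.4), 12.3% (9.24 to 16.0) and 7.90%. The AP-1 motif TGANTCA was in 3.67%, 1.80% and 7.08%, and the heat shock element GAANNTTC in 3.12%, 3.08% and 7.33%. CCAAT was in 44.8%, 42.9% and 39.0%, the E2F motif GCGGGAAA in 1.77%, 1.80% and 1.46%, and the ZBTB33 motif TCTCGCGA in 2.58%, 3.86% and 1.51%. For each of these motifs the intervals of the control-only and shared sets overlapped. Both strands were searched, matches of different motifs may overlap, and a match is a run of letters and not a bound site.

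Some of the genes had a neighbour on the opposite strand that started close by. A protein-coding gene on the opposite strand began within 1000 bp upstream of the start for 108 of 736 control-only genes (14.7%, 12.2 to 17.4), for 42 of 389 shared genes (10.8%, 7.89 to 14.3) and for 7.52% of all protein-coding genes with a listed promoter. Among genes with a COH promoter peak and no control counterpart it was 17 of 155 (11.0%, 6.52 to 17.0). The intervals of the sets with peaks overlapped. Larp7 lies head to head with Zgrf1, 140 bp between starts, Blzf1 with Nme7 at 185 bp and Cenpn with Cmc2 at 304 bp. In 108 of 108 cases the neighbour had no promoter peak of its own in control. Each peak carries 1 gene in the lists, so a peak over both starts could not also count for the neighbour. The 108 of 108 therefore does not show which gene of a pair the peak belongs to. The peak of such a promoter may belong to either gene, and the gene named above is the authors' choice.

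**Figure D5:**
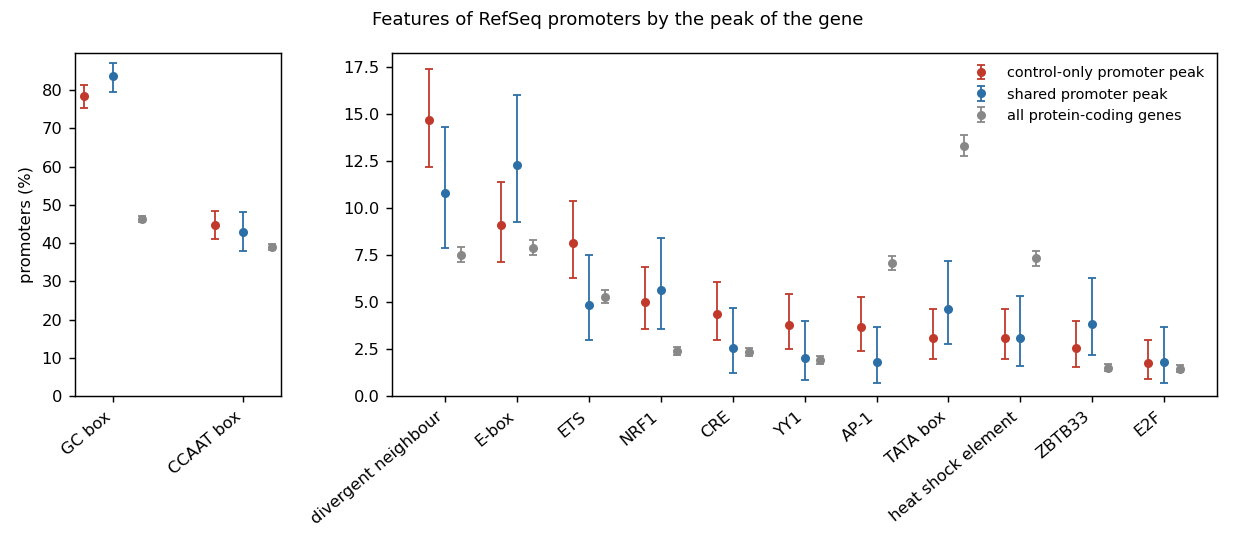
Shares of RefSeq promoters (points, with exact 95% binomial intervals) that hold each motif or have a divergent neighbour, for genes with a control-only promoter peak (red), genes with a shared promoter peak (blue) and all protein-coding genes (grey). The GC box is in 78.5%, 83.5% and 46.3%, and the TATA box in 3.12%, 4.63% and 13.3%.

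The regions were on chromosomes 1 to 19 and X, with 14 on X, where 18 control promoter peaks lay. The share of promoter peaks that were control-only ran between 53.3% (43.3 to 63.1) on chromosome 1 and 77.8% (52.4 to 93.6) on X, and the intervals of these 20 chromosomes held the overall 64.7% except that of chromosome 1. The 3 mitochondrial promoter peaks all had a COH counterpart.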

How the data were processed

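Nuclei of 1 COH and 1 control retina library were profiled by CUT&Tag with the Rac1 antibody ab33186 and 15 cycles of amplification, per the labels' protocols. Reads were trimmed with cutadapt 1.9.1 and aligned with Bowtie2, per the submitters' processing notes, which name mm9. The peak caller is not given in the sources used here. Gene starts in the lists are not those of GRCm38.p6 (30 of 914 within 100 bp), so their build is not settled and peak coordinates are given as listed. The authors deposited 1 annotated peak list per library, with a pileup signal, a fold enrichment (a ratio), and -log10 p and -log10 q for each peak, per the file headers; the control of the background and the scaling are not stated. Per the file headers each peak also carries 1 gene, a class and a distance to the TSS. The read depth is unknown, and intervals cover counting error only.

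From the deposited lists, peaks sharing at least 1 bp were counted as shared, using Python 3.11.15, pandas 2.3.3, NumPy 2.4.6, SciPy 1.17.1 and matplotlib 3.10.9. Shares have exact Clopper-Pearson 95% intervals and medians distribution-free ones. Genes were named through RefSeq (GRCm38.p6) by symbol or unique synonym, and promoters by the first listed start. With 1 library per group there was no test between conditions. The scripts were tested on simulated lists with known overlaps. The regions and the 56 gene lists were chosen with earlier results of these data known. Genes named were Kif2a, the 10 of highest fold, the 5 of highest pileup, those with 2 regions, those nearest the overlap rule, the 5 with the strongest COH peak elsewhere and the 5 of highest fold in each list described. Other genes named, including further list members and genes with shared peaks, were chosen after their values were seen. Some genes that this rule names are not reported here.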

Additional observations from a re-analysis of the deposited data

How the results depend on the processing

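With 1 library per group the spread between animals is not known, and the depth of the lists, which limits how weak a peak could be found, is unknown. The share of control promoter peaks without a COH peak was 71.9% where only a reciprocal overlap of 50% counted as shared. With a -log10 q of at least 5 it was 55.8% (554 peaks), and the median fold was 5.67 in control-only and 6.00 in shared peaks. With folds above the median of the control promoter peaks it was 54.4% (393 peaks; median folds 5.98 and 6.38), with 9 genes holding a COH peak elsewhere and 149 genes in a list. With the strongest 694 control promoter peaks, as many as COH had, it was 53.9% (374 peaks; median folds 6.06 and 6.43), with 7 such genes. These limits leave out weak peaks by construction. Counting peaks within 1000 bp as shared gave 928 peaks (64.2%), keeping those within 1000 bp of the TSS gave 918 (65.0%), and leaving out clustered peaks gave 935 (65.1%). In all of these the control-only peaks had the lower median fold. Of the 56 list counts, 16 changed by over 1.5 times at the -log10 q limit, 34 at the fold limit and 0 with peaks within 1000 bp counted as shared, and 35 to 37 lists stood above the share of all genes, against 36 as reported. In the shorter promoter window the shares of 8 of 12 motifs moved. With any listed start of a gene, an alternative chosen after seeing the data, 0 moved. No paired analysis was possible because each group is 1 library.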
